A study of Homo sapiens with 9 samples.

Results

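Xenobiotic and redox metabolism genes encode enzymes that make foreign and reactive compounds harmless. The genes described here were chosen by symbol: aldo-keto reductases (AKR1, AKR7), aldehyde dehydrogenases (ALDH), glutathione S-transferases (GST), UDP-glucuronosyltransferases (UGT1, UGT2), sulfotransferases (SULT), carboxylesterases (CES), alcohol dehydrogenases (ADH) and cytochromes P450 (CYP), together with NQO1, GCLC, GCLM, TXNRD1, HMOX1, SRXN1 and OSGIN1. The rule found 34 probe sets for 33 genes, out of 14884 genes with a named probe set. Of the 33, 26 were protein-coding, 6 were transcribed pseudogenes and 1 was a long non-coding RNA. By family they were 20 GST genes, 6 CES genes, 2 ALDH genes, 1 ADH gene and 4 of the genes listed singly (SRXN1, HMOX1, TXNRD1 and OSGIN1). No named probe set stood for an AKR, CYP, UGT or SULT gene or for NQO1, GCLC or GCLM, because 37519 of the 53617 probe sets were not named here. Those genes were not analysed here.

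These enzymes work in steps. Phase I enzymes such as the alcohol and aldehyde dehydrogenases and the carboxylesterases oxidise, reduce or hydrolyse a compound, and phase II enzymes such as the glutathione S-transferases attach a water-soluble group to it. The transcription factor NRF2 switches on many of these genes, together with redox enzymes of the thioredoxin system, and KEAP1 holds NRF2 down by marking it for degradation. A549, a human non-small-cell lung cancer line, carries a loss-of-function KEAP1 mutation and is known for high basal NRF2 activity.

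RNA was measured on 9 Affymetrix arrays after 5 days of culture in 96-well plates, 3 arrays in each of 3 conditions. All cells were A549 grown in DMEM with 10% fetal bovine serum. The first condition was a low-attachment plate with the culture additive FP001 at 0.015% (w/v), the second a low-attachment plate without FP001 and the third a normal attachment plate without FP001. The last 2 received Milli-Q water. Attachment replicate 1 stood apart, with a median of 15.8 where the remaining 8 arrays had medians of 23.3 to 24.1. Its rank correlation with them reached at most -0.00191, whereas the 8 correlated with each other at 0.961 to 0.985. It was left out, so values below rest on 3 FP001, 3 low-attachment and 2 attachment arrays. The labels do not say whether replicates were separate cultures, and the p-values therefore cover array-to-array spread that may be technical. Values are MAS5 intensities, and the brightness of different probe sets also depends on their probes, so it is not read as an amount of RNA. In a whole-culture sample, fewer expressing cells and less RNA per cell cannot be told apart.

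The keratin KRT18, an epithelial marker, averaged an intensity of 3936 over the 8 arrays. The 14 named lung epithelial markers summed to 5531 to 5961 in FP001 cultures, 4979 to 5162 in low-attachment cultures and 4835 to 5106 in attachment cultures. Most of each sum was KRT18, at 4288 to 4579, 3640 to 3770 and 3478 to 3705 in that order. By limma at an adjusted p under 0.05, 2 of 12 tested markers (KRT18 and AQP5) rose and 1 (EPCAM) fell in FP001 over attachment cultures. In low-attachment over attachment cultures 0 rose and 1 (KRT7) fell. Of all genes, 19.5 and 10.1 percent were called in these comparisons. The 5 named hepatocyte markers, listed because hepatocytes express many xenobiotic enzymes, summed to 146 to 162 in FP001 cultures, 152 to 161 in low-attachment cultures and 109 to 122 in attachment cultures. Fibroblast markers (3 named) summed to 134 to 493, 80.4 to 313 and 110 to 170 in the same order of conditions. Leukocyte markers (4 named) summed to 674 to 1006, 597 to 842 and 457 to 541, and endothelial markers (4 named) to 108 to 136, 96.4 to 116 and 87.1 to 99.1. No marker was listed at 0. The part of these shifts in the results below was not tested.

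A gene was tested where its probe set reached the median intensity of the array on at least 3 of the 8 arrays. This left 24 of the 33 genes, and 22 of them reached the median on all 8. GSTT4 and CES1P1 passed only through FP001 and low-attachment arrays. The 9 genes too dim to test were GSTM1, GSTA3, CES5AP1, ALDH1L1-AS2, GSTM5, CES5A, GSTT2, GSTTP2 and GSTA5, with mean intensities of 11.2 to 16.4. Of the dim genes, 8 never reached the median, and the carboxylesterase pseudogene CES5AP1 did so on 2 low-attachment arrays. The brightest probe set was that of GSTP1, the pi-class transferase that is abundant in lung epithelium, followed by those of ALDH2, SRXN1, HMOX1 and TXNRD1. The glutathione S-transferase genes thus ran from the brightest to the dimmest end of the list.

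**Figure D1:**
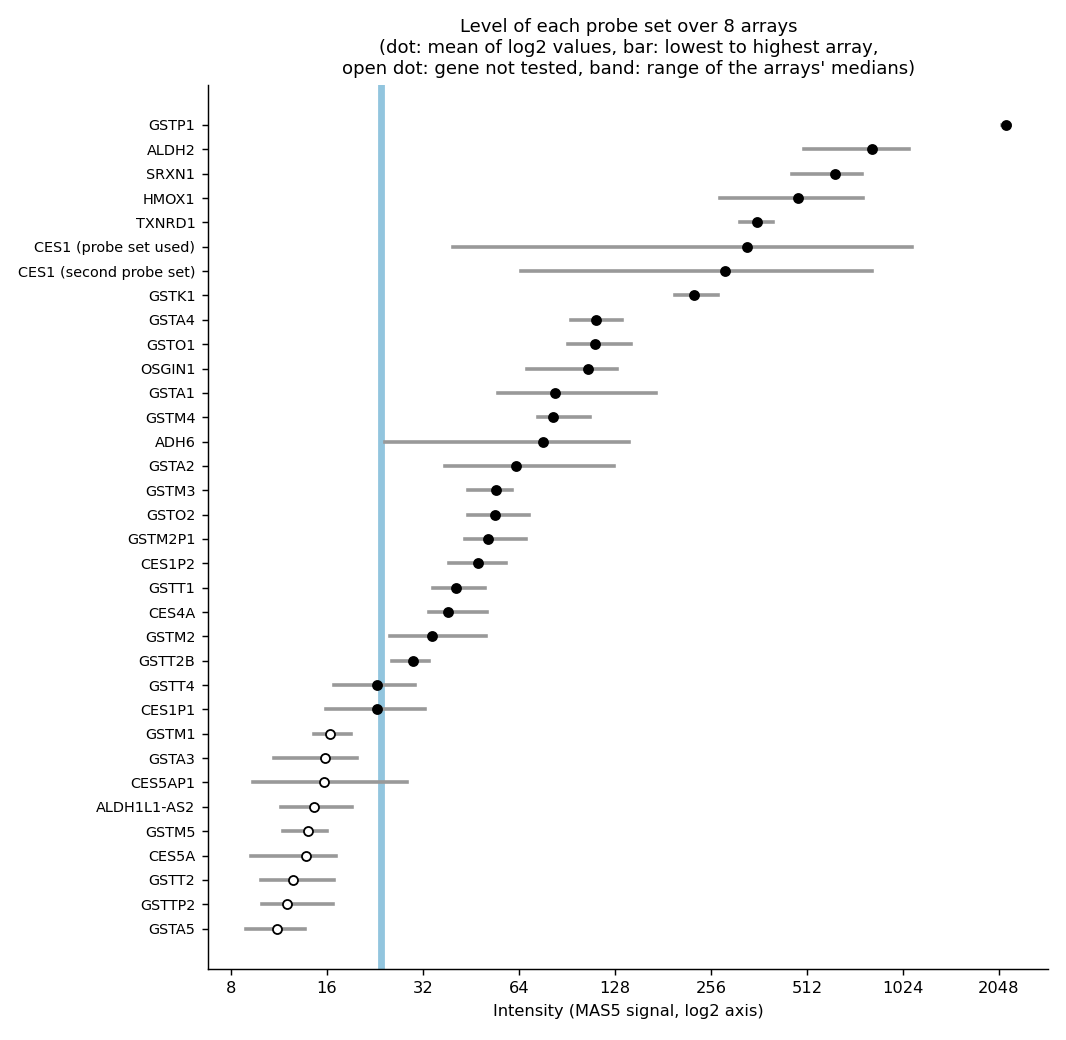
Intensity of each of the 34 probe sets over the 8 arrays on a log2 axis, with a dot at the mean of the log2 values, a bar between the lowest and the highest array, open dots for the 9 genes not tested and a band for the range of the arrays' medians (23.3 to 24.1). CES1 and ADH6 have long bars, whereas the 8 values of GSTP1 lie within the width of its dot.

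Among the 24 tested genes, 6 rose and 1 fell in low-attachment cultures relative to attachment cultures, by limma at an adjusted p under 0.05. Over all 10916 genes tested, 10.1 percent were called in that comparison, 4.31 percent higher and 5.76 percent lower. ADH6, GSTA2, GSTA1, ALDH2, OSGIN1 and GSTA4 rose, between 3.11-fold and 1.30-fold, and HMOX1 fell 1.92-fold. In FP001 cultures relative to attachment cultures 4 genes rose and 0 fell, where 19.5 percent of all genes were called, 8.08 percent higher and 11.4 percent lower. These were ADH6, OSGIN1, ALDH2 and GSTO1. Both comparisons share the same 2 attachment arrays. The groups did not overlap for 12 genes that were higher and 1 that was lower in low-attachment cultures (22.2 and 23.4 percent of all genes). The 12 include CES1P1, which passed the filter only through FP001 and low-attachment arrays, so that direction was favoured. In FP001 cultures this held for 7 higher and 2 lower genes, against 26.5 and 26.2 percent of all genes.

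The median log2 fold change of the 24 genes was 0.21 in low-attachment over attachment cultures and 0.23 in FP001 over attachment cultures, where the medians of all genes were 0.01 and 0.02. A positive value was seen in 19 of 24 genes in each, and the share over all genes was not counted. The 19 include GSTT4 and CES1P1, which passed the filter only through FP001 and low-attachment arrays. Their sign was thereby favoured, and both also enter these medians. Between FP001 and low-attachment cultures 0 of the 24 were called by limma, where 0.110 percent of all genes were (0.0366 percent higher and 0.0733 percent lower), and 4 had an unadjusted p under 0.05. The groups did not overlap for 3 higher and 4 lower genes, against 8.48 and 9.01 percent of all genes. The median there was -0.03, against 0.01 over all genes. A test of any difference among the 3 groups (moderated F-test of limma) called ALDH2, OSGIN1, GSTA1, ADH6, GSTA2 and GSTA4, that is 6 of 24, where it called 14.0 percent of all genes.

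**Figure D2:**
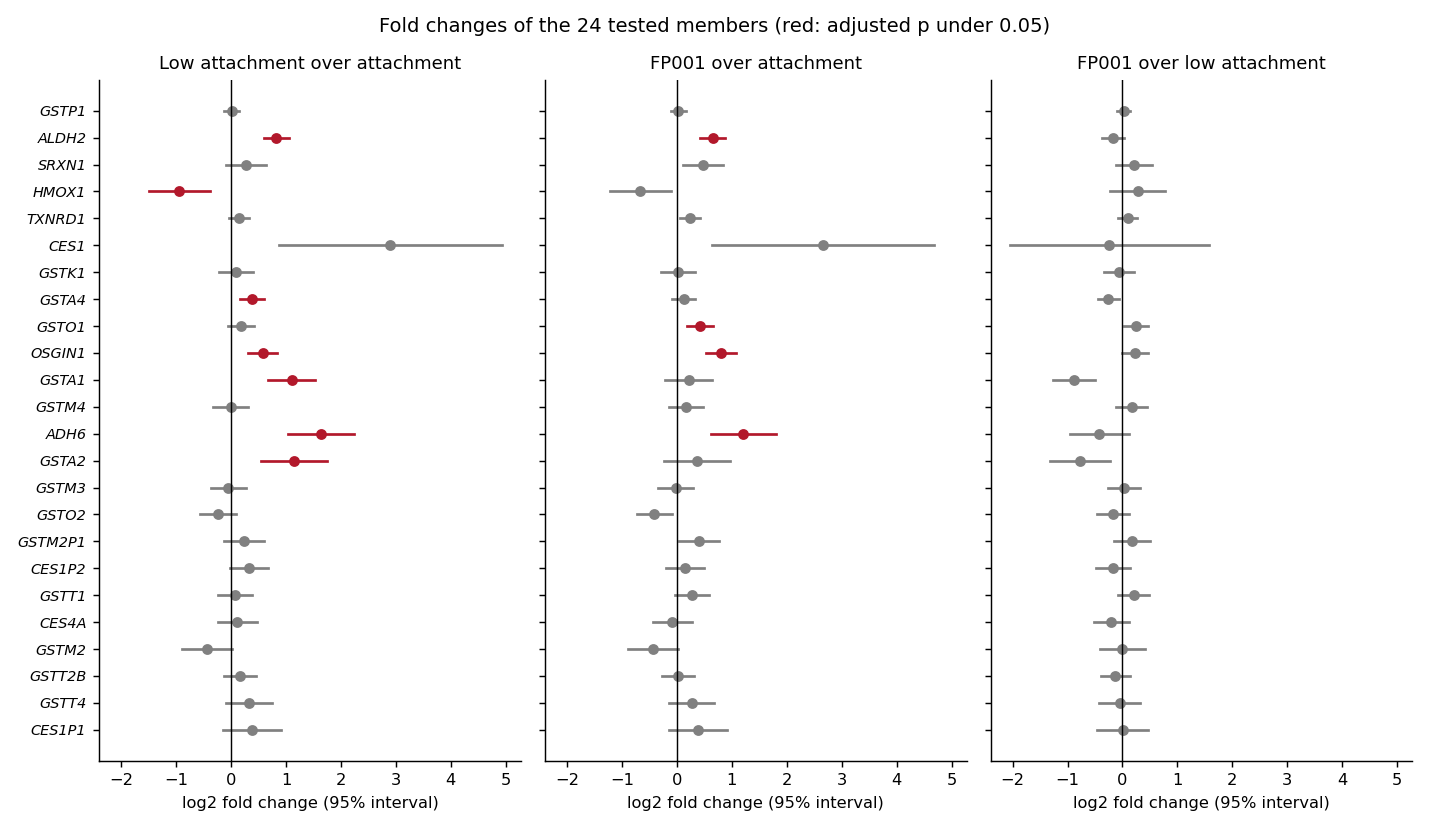
Log2 fold changes of the 24 tested genes with 95% intervals, for low attachment over attachment (left), FP001 over attachment (middle) and FP001 over low attachment (right), genes ordered by mean intensity and called genes in red. Red points number 7, 4 and 0 from left to right, and CES1 has the widest interval in each panel.

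The 2 tested dehydrogenase members, ALDH2 and ADH6, rose on low-attachment plates with and without FP001. ALDH2, the mitochondrial aldehyde dehydrogenase that clears acetaldehyde, had intensities of 929, 832 and 878 in FP001 cultures, 1068, 967 and 939 in low-attachment cultures, and 623 and 500.5 in attachment cultures. All 6 low-attachment arrays were above both attachment arrays. ALDH2 rose by 0.83 ± 0.11 (SE) on the log2 scale in low-attachment cultures (1.77-fold, adjusted p = 0.00139) and by 0.65 ± 0.11 in FP001 cultures (1.57-fold, adjusted p = 0.00257).

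ADH6, a class V alcohol dehydrogenase, read 81.1, 81.8 and 89.7 with FP001, 141.5, 97.9 and 103.4 in low-attachment cultures, and 54.0 and 24.3 in attachment cultures. The low-attachment arrays again lay above both attachment arrays, which themselves differed by 1.15 on the log2 scale. The gene rose 3.11-fold in low-attachment cultures (log2 1.64 ± 0.27, adjusted p = 0.00497) and 2.32-fold in FP001 cultures (log2 1.21 ± 0.27, adjusted p = 0.0126). Without attachment replicate 3, the dimmer of the pair, its FP001 difference was 0.64 with an adjusted p of 0.0676.

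The alpha-class glutathione S-transferases GSTA1 and GSTA2 conjugate glutathione to electrophiles and reduce lipid hydroperoxides, and GSTA4 prefers the lipid peroxidation product hydroxynonenal. GSTA2, GSTA1, GSTA5, GSTA3 and GSTA4 lie in that order on chromosome 6. GSTA1 and GSTA2 are near-identical copies, and their promoters are shown because the pair moved together across the arrays while probes of one copy could also read the other. The RefSeq windows (GRCh38.p14, 250 bases before to 50 after the start, minus strand) are chr6:52803767-52804066 for GSTA1 and chr6:52763426-52763725 for GSTA2. They share 288 of 300 bases (96%), and capitals mark the 12 that differ.
GSTA1: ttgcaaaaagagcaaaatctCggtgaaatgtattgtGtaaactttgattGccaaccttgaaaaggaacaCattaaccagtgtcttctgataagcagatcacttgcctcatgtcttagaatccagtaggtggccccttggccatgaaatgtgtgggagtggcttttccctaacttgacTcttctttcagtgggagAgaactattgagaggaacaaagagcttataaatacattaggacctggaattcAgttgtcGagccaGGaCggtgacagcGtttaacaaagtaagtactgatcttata
GSTA2: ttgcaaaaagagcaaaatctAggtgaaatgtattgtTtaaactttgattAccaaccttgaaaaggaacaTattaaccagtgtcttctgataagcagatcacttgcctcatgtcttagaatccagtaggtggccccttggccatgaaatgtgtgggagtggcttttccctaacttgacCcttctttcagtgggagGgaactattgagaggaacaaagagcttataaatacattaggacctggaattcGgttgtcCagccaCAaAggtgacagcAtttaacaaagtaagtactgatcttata

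GSTA1 read 76.2, 69.3 and 60.1 in FP001 cultures, 172, 113 and 103 in low-attachment cultures, and 55.0 and 62.8 in attachment cultures. The 3 low-attachment arrays without FP001 were above all others, and the FP001 and attachment arrays overlapped. GSTA2 read 79.1, 40.1 and 51.7 with FP001, 126.9, 78.8 and 81.9 in low-attachment cultures, and 37.5 and 47.6 in attachment cultures. Here the brightest FP001 array reached the dimmest low-attachment array, so those groups overlapped, whereas low-attachment and attachment arrays did not.

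In low-attachment over attachment cultures GSTA1 rose 2.15-fold (log2 1.10 ± 0.19, adjusted p = 0.00667). GSTA2 rose 2.22-fold (log2 1.15 ± 0.27, adjusted p = 0.0249). Their differences between FP001 and attachment cultures were 0.22 ± 0.19 (adjusted p = 0.455, 95% interval -0.22 to 0.65) for GSTA1 and 0.37 ± 0.27 (adjusted p = 0.348, interval -0.23 to 0.98) for GSTA2. GSTA1 lost its call without attachment replicate 2 (adjusted p = 0.0729). GSTA2 lost it without either attachment array (0.18 without replicate 2, 0.076 without replicate 3) or without low-attachment replicate 1 (0.0554).

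GSTA4 read 109.8, 110.7 and 100.9 in FP001 cultures, 127, 122 and 134 in low-attachment cultures, and 103.4 and 93.0 in attachment cultures. Low-attachment arrays lay above all others and FP001 arrays overlapped the attachment arrays. The rise in low-attachment cultures was 1.30-fold (log2 0.38 ± 0.10, adjusted p = 0.0317), and it missed the threshold without any single low-attachment or attachment array (adjusted p = 0.0537 to 0.186).

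Between FP001 and low-attachment cultures, GSTA1 and GSTA2 had the largest differences of the 24 genes. GSTA1 was -0.89 ± 0.17 on the log2 scale (1.85-fold lower with FP001, 95% interval -1.27 to -0.50, adjusted p = 0.115), with no overlap between the groups. GSTA2 was -0.77 ± 0.24 (1.71-fold lower, interval -1.31 to -0.24, adjusted p = 0.276). Both missed the threshold in the unblocked fit. Arrays of the 2 low-attachment conditions that carry the same replicate number deviated together. The titles give only the number, so taking same-numbered arrays as pairs rests on these same data. With the replicate number as a block, GSTA1 (adjusted p = 0.00499) and GSTA2 (adjusted p = 0.0051) fell in FP001 cultures. The block called 1.30 percent of all genes, 0.843 percent lower. The paired differences were -1.18, -0.71 and -0.78 for GSTA1 at numbers 1, 2 and 3. For GSTA2 they were -0.68, -0.98 and -0.66. FP001 was thus the lower of each pair at all 3 numbers for both genes. For GSTA1 any pairing would give this, because its groups did not overlap.

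In a blocked fit on the 6 low-attachment arrays alone, 3 of the 24 genes were called, where 4.43 percent of all genes were (1.69 percent higher, 2.73 percent lower). GSTA1 fell with an adjusted p of 0.000586 and GSTA2 with one of 0.00112. HMOX1 rose by 0.27 ± 0.06 (adjusted p = 0.0240). Over all 24 genes, 9 were lower and 7 higher in FP001 cultures at all 3 numbers, against 20.7 and 20.8 percent of all genes.

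**Figure D3:**
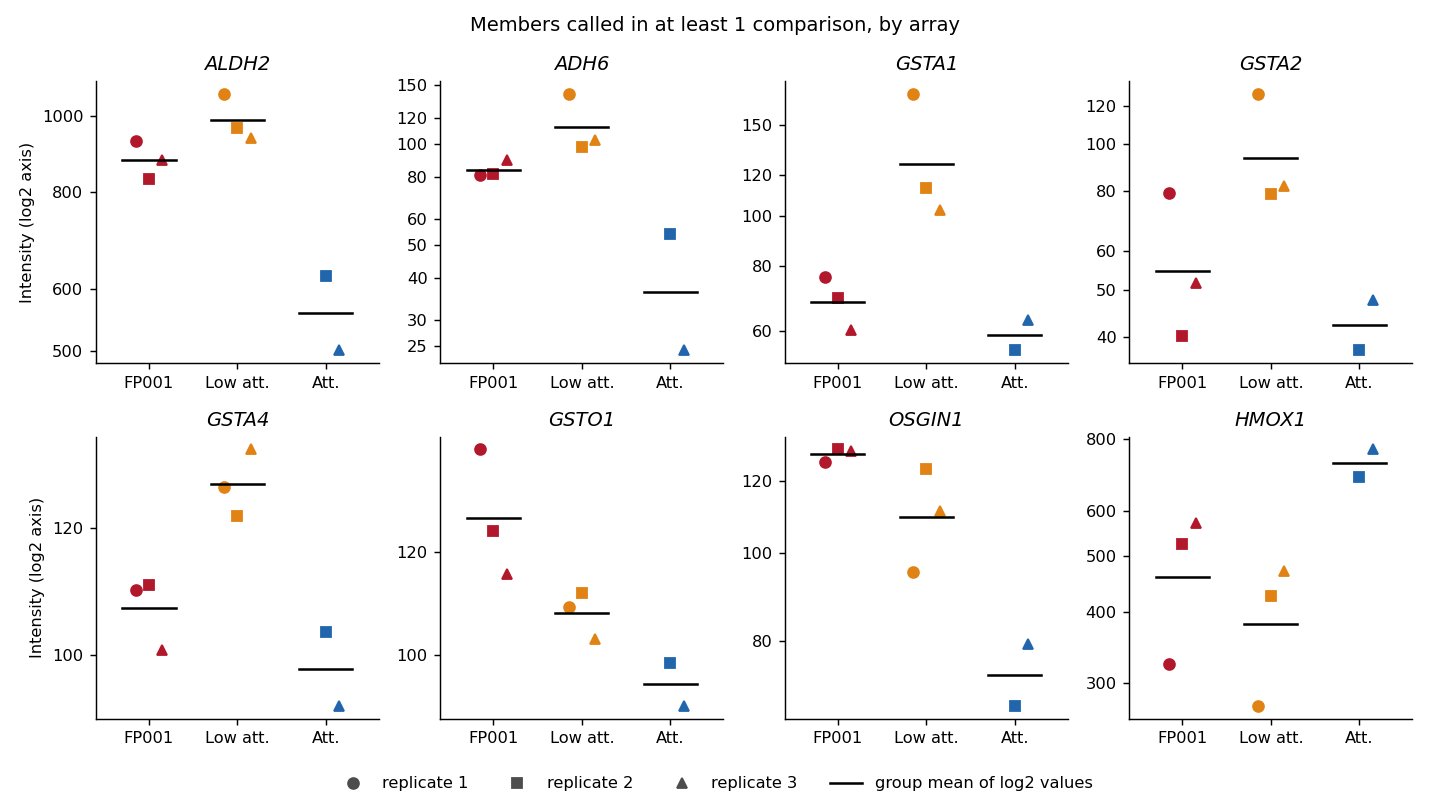
Intensity by array, on log2 axes that differ in range, for the 8 genes called in at least 1 comparison, with FP001, low-attachment and attachment cultures from left to right, symbols for replicate numbers and a bar at the mean of the log2 values. GSTA1 and GSTA4 are higher in every low-attachment array without FP001 than in any FP001 or attachment array, ALDH2 and ADH6 are high in both low-attachment conditions, and HMOX1 is highest in attachment cultures.

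The omega-class gene GSTO1, whose product reduces dehydroascorbate and methylated arsenic, read 144, 125 and 115 in FP001 cultures, 109, 112 and 103 in low-attachment cultures, and 98.6 and 91.4 in attachment cultures. The 3 groups did not overlap, FP001 arrays being the highest. GSTO1 rose 1.34-fold in FP001 cultures over attachment cultures (log2 0.43 ± 0.11, adjusted p = 0.0231), and the difference in low-attachment cultures was 0.18 ± 0.11 (adjusted p = 0.322). The FP001 rise missed the threshold without FP001 replicate 1 or 2 or without either attachment array (adjusted p = 0.0508 to 0.124). Its neighbour GSTO2 was at 51.4, 49.1 and 44.3 with FP001, 48.7, 66.0 and 49.3 in low-attachment cultures and 68.7 and 59.5 in attachment cultures, which the FP001 arrays did not overlap. It differed by -0.41 ± 0.15 in FP001 over attachment cultures (adjusted p = 0.0761).

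GSTP1 varied little, between 2101 and 2223 over the 8 arrays. It read 2223, 2149 and 2154 in FP001 cultures, 2145, 2147 and 2146 in low-attachment cultures, and 2101 and 2159 in attachment cultures. The attachment arrays overlapped the others, and the FP001 arrays were narrowly above the low-attachment arrays. Its log2 difference from attachment cultures was 0.03 (95% interval -0.11 to 0.17) with FP001 and 0.01 (interval -0.13 to 0.15) without, and between FP001 and low-attachment cultures it was 0.02 (interval -0.10 to 0.14). GSTK1, the kappa-class enzyme of mitochondria and peroxisomes, read 269.6, 197.5 and 210.4 with FP001, 259.8, 208.2 and 239.2 in low-attachment cultures and 222 and 218 in attachment cultures. Replicate 1 was its highest array in both low-attachment conditions, and the groups overlapped.

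The mu-class genes GSTM2, GSTM3, GSTM4 and GSTM2P1 and the theta-class genes GSTT1, GSTT2B and GSTT4 were not called in any comparison. Mu and theta genes are close paralogs, so which of them a probe set reads is uncertain. GSTM4 averaged 88.2 in FP001 cultures, 78.3 in low-attachment cultures and 78.6 in attachment cultures, and GSTM3 54.3, 53.3 and 55.1. GSTM2 was the lowest of this group against attachment cultures, at -0.43 in low-attachment cultures, and its arrays of 25.3 to 50.6 overlapped in every comparison.

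The redox genes listed singly did not share a direction. OSGIN1, an NRF2 target first described as an oxidative stress-induced growth inhibitor, read 125.9, 129.8 and 129.4 in FP001 cultures, 95.3, 123.7 and 111.0 in low-attachment cultures, and 68.0 and 79.5 in attachment cultures. Every low-attachment array, with or without FP001, was above both attachment arrays. OSGIN1 rose 1.75-fold in FP001 cultures (log2 0.80 ± 0.12, adjusted p = 0.00182) and 1.49-fold in low-attachment cultures (log2 0.57 ± 0.12, adjusted p = 0.0152). The low-attachment rise was 0.46 with an adjusted p of 0.135 without attachment replicate 2. FP001 and low-attachment cultures differed by 0.23 ± 0.11 (adjusted p = 0.446).

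HMOX1, the heme oxygenase that splits heme into biliverdin, iron and carbon monoxide, went the other way. It read 324, 524 and 571 in FP001 cultures, 274, 426 and 469.9 in low-attachment cultures, and 689 and 768 in attachment cultures. Both attachment arrays were above all low-attachment arrays, and replicate 1 was the lowest in each low-attachment condition. HMOX1 fell by 0.94 ± 0.25 on the log2 scale in low-attachment cultures (adjusted p = 0.0412). In FP001 cultures the difference was -0.66 ± 0.25 (adjusted p = 0.0896, 95% interval -1.22 to -0.10). The call was lost without low-attachment replicate 1 (-0.70, adjusted p = 0.0826) or 2 (0.0589), without FP001 replicate 2 (0.0573), and without attachment replicate 2 (0.146) or 3 (0.189).

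SRXN1, the sulfiredoxin that restores overoxidised peroxiredoxins, read 635, 764 and 754 with FP001, 487, 707 and 698 in low-attachment cultures, and 460.0 and 578 in attachment cultures. The FP001 arrays were above both attachment arrays and the low-attachment arrays overlapped them. Its difference from attachment cultures was 0.47 ± 0.17 with FP001 (1.39-fold, adjusted p = 0.0691) and 0.27 ± 0.17 without (adjusted p = 0.33). TXNRD1, the cytosolic thioredoxin reductase, read 366, 380.2 and 400.2 with FP001, 339, 364 and 371 in low-attachment cultures, and 315 and 333 in attachment cultures. All low-attachment arrays were above both attachment arrays, yet the differences of 0.24 ± 0.08 with FP001 (adjusted p = 0.0728) and 0.14 ± 0.08 without (adjusted p = 0.31) missed the threshold.

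NRF2 binds the antioxidant response element, which contains the AP-1 site in some genes. Both strands of the RefSeq promoter windows were searched for the core TGACNNNGC, present in 13.3% of 35116 promoters, and for the AP-1 site TGANTCA, present in 7.71%. Of 16 tested genes with a promoter entry, the core was found in 4 (GSTA4, GSTO1, GSTP1 and TXNRD1) and the AP-1 site in 3 (CES4A, GSTP1 and OSGIN1). These genes have 19 windows and count with a match in any of them, whereas the percentages are per window. The windows of OSGIN1 (chr16:83952990-83953289, plus strand), which rose, and GSTP1 (chr11:67583562-67583861, plus strand), which was not called, are shown to set the matches of a called and an uncalled gene side by side. Capitals mark the matches, and in GSTP1 the core and the AP-1 site overlap.
OSGIN1: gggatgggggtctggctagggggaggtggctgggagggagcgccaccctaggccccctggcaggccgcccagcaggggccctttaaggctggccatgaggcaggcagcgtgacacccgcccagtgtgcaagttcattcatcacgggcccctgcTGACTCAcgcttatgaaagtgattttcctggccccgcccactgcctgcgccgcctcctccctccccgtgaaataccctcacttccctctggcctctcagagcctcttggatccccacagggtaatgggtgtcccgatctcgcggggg
GSTP1: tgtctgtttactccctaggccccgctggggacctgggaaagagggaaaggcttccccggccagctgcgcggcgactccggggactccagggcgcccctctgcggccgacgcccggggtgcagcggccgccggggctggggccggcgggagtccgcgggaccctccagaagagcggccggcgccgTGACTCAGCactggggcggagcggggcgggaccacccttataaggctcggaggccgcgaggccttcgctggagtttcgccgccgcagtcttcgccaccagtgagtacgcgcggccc

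CES1, a carboxylesterase of liver and lung that hydrolyses ester and amide drugs, had the widest spread of the tested genes. It read 146, 870.3 and 965 in FP001 cultures, 189, 1093 and 973 in low-attachment cultures, and 39.7 and 155 in attachment cultures. Replicates 2 and 3 of both low-attachment conditions were far above the attachment arrays, whereas replicate 1 was close to attachment replicate 3. In FP001 cultures replicate 1 was 6.27-fold below the mean (on the log2 scale) of replicates 2 and 3. In low-attachment cultures it was 5.44-fold below that mean. Averaged over the 2 conditions, this was the lowest replicate 1 value of all 10916 genes.

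With all 8 arrays the log2 difference from attachment cultures was 2.66 ± 0.92 with FP001 (adjusted p = 0.0653, 95% interval 0.63 to 4.69) and 2.90 ± 0.92 without (adjusted p = 0.0715, interval 0.87 to 4.93). Without replicate 1 of both low-attachment conditions, left out after the values were seen, CES1 was called higher by 3.54 ± 0.45 with FP001 (adjusted p = 0.000744) and by 3.71 ± 0.45 without (adjusted p = 0.000893). Its second probe set read 121, 770.0 and 635 with FP001, 144, 818 and 653 in low-attachment cultures, and 65.1 and 142 in attachment cultures. That probe set had the same low replicate 1, with differences of 2.02 ± 0.83 with FP001 (adjusted p = 0.109) and 2.15 ± 0.83 without (adjusted p = 0.131). CES1P1 and CES1P2, pseudogene neighbours of CES1 on chromosome 16, and CES4A were not called, and shared signal among CES1 and its pseudogenes could not be tested.

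**Figure D4:**
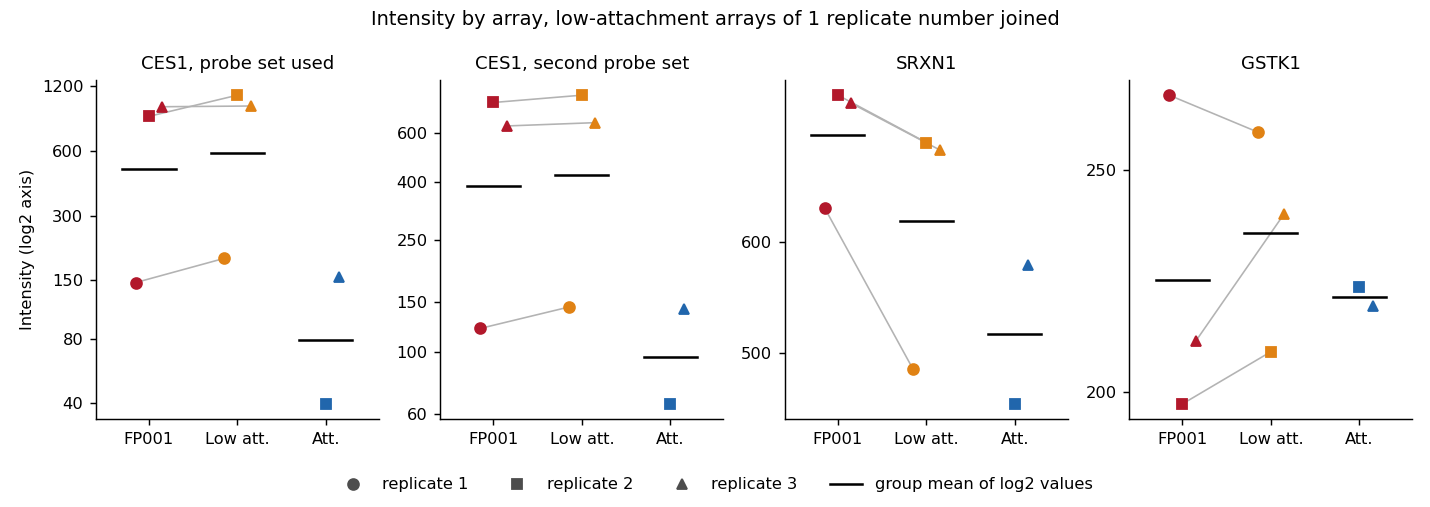
Intensity by array, on log2 axes that differ in range, for both CES1 probe sets, SRXN1 and GSTK1, with low-attachment arrays of the same replicate number joined and a bar at the mean of the log2 values. Replicate 1 of both low-attachment conditions is low for CES1 (146 and 189 on the probe set used) and for SRXN1, and high for GSTK1.

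Other genes shared the replicate 1 shift. Replicate 1 minus the mean of replicates 2 and 3 was -0.76 in FP001 and -0.71 in low-attachment cultures for HMOX1. For SRXN1 the values were -0.26 and -0.53, for GSTA2 they were 0.80 and 0.66, and for GSTA1 they were 0.24 and 0.67. The 2 conditions shared the sign for 17 of 24 genes, against 62.7% of all genes. A shift over 2-fold in both was seen in 16 of the 10916 genes, of which CES1 was 1.

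**Figure D5:**
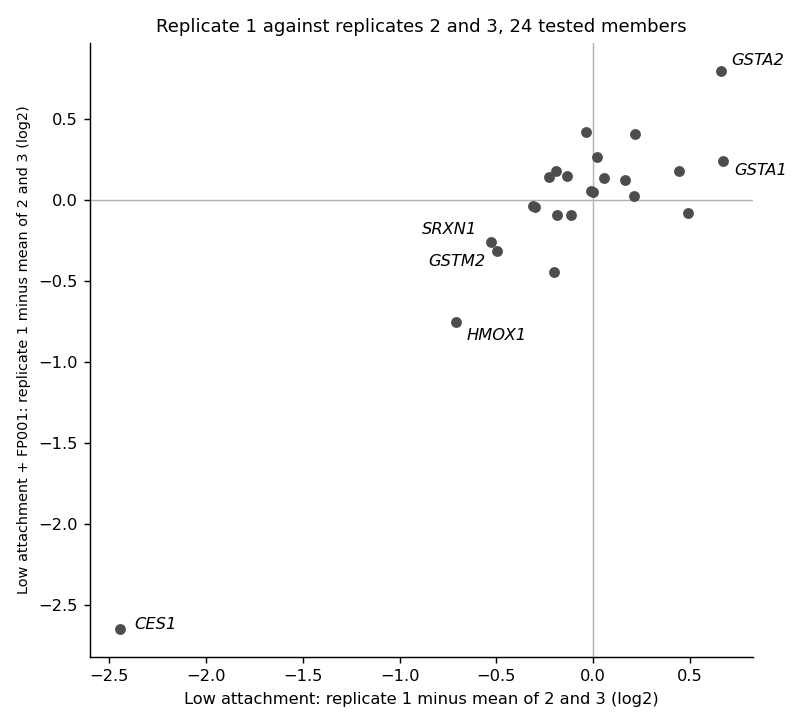
Log2 difference of replicate 1 from the mean of replicates 2 and 3 for the 24 tested genes, in low-attachment cultures (horizontal axis) and FP001 cultures (vertical axis). CES1 lies far below 0 on both axes, at -2.44 and -2.65, and HMOX1 and SRXN1 are also negative on both, while GSTA1 and GSTA2 are positive on both.

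The surrounding pathway was read from lists of genes outside the rule. None of these lists had a call between FP001 and low-attachment cultures by limma without a block. The counts below stand against 8.08 percent of all genes higher and 11.4 percent lower in FP001 cultures, and 4.31 percent higher and 5.76 percent lower in low-attachment cultures, over attachment cultures. Likewise the list medians stand against all-gene medians of 0.02 with FP001 and 0.01 without. Some counted rises and falls lay near the threshold. In FP001 over attachment cultures, NFE2L1, TRIM16, PPARG, FMO5 and MGST2 had adjusted p of 0.0439 to 0.0491 by limma. Each of these calls was lost in 10 to 12 alternative fits. In low-attachment over attachment cultures, SQSTM1 and PPARG had adjusted p of 0.0405 and 0.0370 by limma, and each call was lost in 8 alternative fits. Of 9 tested NRF2 regulators, 3 rose in FP001 cultures and 2 in low-attachment cultures over attachment cultures, and 0 fell (median log2 fold changes 0.13 and 0.13). KEAP1 was among them, at 0.42 with FP001 (adjusted p = 0.00509) and 0.44 without (adjusted p = 0.00644, and 0.0549 without attachment replicate 3). NFE2L2, which encodes NRF2, differed by -0.13 and -0.04 and was not called. Of 18 other genes listed as NRF2 targets, 6 rose and 1 fell in FP001 cultures and 4 rose and 0 fell in low-attachment cultures (medians 0.21 and 0.14). The list does not separate genes that NRF2 raises from genes that it lowers, so these counts are not read as NRF2 activity. The largest of the 4 rises was that of TXNIP, a thioredoxin inhibitor, at 1.97 (adjusted p = 0.0106). With replicates left out this log2 rise ranged from 1.51 to 2.38, and its call was lost without attachment replicate 3. That fit has 1 attachment array, and in it the other rises, of TALDO1, BLVRB and GPX2, also lost their calls. Over all alternative fits, the low-attachment calls of TALDO1 and BLVRB were lost in 4 and 5. TXNIP differed by 0.69 with FP001 and was not called there (adjusted p = 0.224). BLVRB, a biliverdin reductase, rose 1.43-fold in FP001 cultures (log2 0.51, adjusted p = 0.00091). BLVRA, the other biliverdin reductase in the list, was not called there (log2 0.05, adjusted p = 0.676). TALDO1, a transaldolase of the pentose phosphate pathway, rose 1.43-fold there too (log2 0.52, adjusted p = 0.00399). The 8 tested members known as NRF2 targets had 1 rise and 0 falls in FP001 cultures, where 19.5 percent of all genes were called, and 2 rises and 1 fall in low-attachment cultures (medians 0.18 and 0.21). The rises were OSGIN1 in both and GSTA4 in low-attachment cultures, and the fall was HMOX1.

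A further list held xenobiotic receptors, their partners, TIPARP and the FOXA transcription factors, so not every gene in it senses xenobiotics. Of its 9 tested genes, 4 rose and 3 fell in FP001 cultures and 4 rose and 2 fell in low-attachment cultures (medians 0.40 and 0.38). AHR, the aryl hydrocarbon receptor, rose by 0.71 with FP001 (adjusted p = 0.000491) and by 0.48 without (adjusted p = 0.00529, and 0.0557 without attachment replicate 3). TIPARP, a target and repressor of AHR, rose by 0.77 with FP001 (adjusted p = 0.000578) and by 0.71 without (adjusted p = 0.00136). ARNT, the partner of AHR, fell by 0.46 with FP001 (adjusted p = 0.00382). The classical AHR target genes among the P450 families had no named probe set.

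Of 17 tested P450 partners and other phase I enzymes, 3 rose and 5 fell in FP001 cultures and 1 rose and 2 fell in low-attachment cultures (medians -0.08 and -0.08). The flavin monooxygenase FMO5 rose 2.05-fold in low-attachment cultures (log2 1.04, adjusted p = 0.00302), and the paraoxonase PON1, a lactonase, fell by 1.57 on the log2 scale in FP001 cultures (adjusted p = 0.000883). Of 13 other conjugation enzymes, 2 rose and 3 fell with FP001, and 0 rose and 2 fell without (medians 0.09 and 0.08). The methyltransferase NNMT fell by 2.16 with FP001 (adjusted p = 3.16e-05) and by 1.61 without (adjusted p = 0.000294). Of 30 tested glutathione, thioredoxin and peroxide genes, 5 rose and 1 fell with FP001, and 3 rose and 1 fell without (medians 0.15 and 0.07), where 10.1 percent of all genes were called without FP001. GPX3, a glutathione peroxidase, rose by 0.74 with FP001 (adjusted p = 0.0019), and SESN1, a sestrin, fell by 0.70 (adjusted p = 0.00124). The lists overlap, so their counts are not separate. Of the glutathione and thioredoxin rises, TXN and GPX2 with FP001 and GPX2 and TXNIP without were also counted as NRF2 targets. So were the phase I rises of CBR1 and CBR3 with FP001. The 24 drug transporters listed had no named probe set.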

How the data were processed

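Total RNA (100 ng) was labelled by a 3' in vitro transcription protocol, per the labels' protocols. The deposited table holds linear intensities, and the authors' tool was MAS5 according to the submitters' processing notes. Settings of the tool are not given in the sources, and numeric probe set identifiers leave uncertain which part of a transcript was read. Names came from the platform annotation held by GEO, which gave 16098 of 53617 a symbol.

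Intensities were taken as log2 with no further normalization. Probe sets at or above the array median on at least 3 of 8 arrays were kept (27942, 11711 of them named), and the brightest stood for its gene (10916 genes). All 3 groups entered 1 limma 3.58.1 fit in R 4.3.3 (trend prior, 5 residual degrees of freedom), two-sided, with Benjamini-Hochberg adjustment over all genes at 0.05. The few arrays limit the precision. The planned fit left out attachment replicate 1, and all 9 arrays were an alternative. The fit was tested on simulated data.

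Same-numbered low-attachment arrays, whose numbers come from the titles, deviated together (correlations of 0.483, 0.309 and 0.231 for numbers 1, 2 and 3), so the blocked FP001 over low-attachment values stand beside the unblocked ones. Attachment numbers showed no pairing, which 2 arrays could hardly show.

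Genes named are called members (up to 12 rises and 12 falls), the 12 brightest, those listed singly, and up to 3 called genes per list. Beyond that, GSTO2, the mu and theta genes and the CES1 relatives were named to account for members. NFE2L2, BLVRB, BLVRA, ARNT, KRT18, LUM and the FOXA genes were named after their values were seen. TXN, GPX2, TXNIP, CBR1 and CBR3 were named where lists overlap, and NFE2L1, TRIM16, PPARG, MGST2 and SQSTM1 as calls near the threshold. Members and lists were chosen with earlier results of these data known.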

Additional observations from a re-analysis of the deposited data

How the results depend on the processing

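Over 22 named results and 399 alternatives, 341 kept their direction and side of the threshold, 25 gained a call, 32 lost one and 1 reversed. The reversal was GSTA1 in FP001 over attachment cultures with all 9 arrays, at -0.35. With all 9 arrays limma called 0 of the members in each attachment comparison (3 at an unadjusted p under 0.05 in each), 0 between FP001 and low-attachment cultures (0 unadjusted) and 0 among the 3 groups (4 unadjusted), and the median log2 fold change of all genes was 0.69 in FP001 and 0.70 in low-attachment over attachment cultures, against 0.02 and 0.01 with 8 arrays. Leaving out single replicates, or replicate 1 of both low-attachment conditions, gave 2 to 8 called genes in FP001 over attachment cultures (2 without attachment replicate 3, 7 without low-attachment replicate 1, 8 without replicate 1 of both), 2 to 9 in low-attachment over attachment cultures (2 without attachment replicate 2 and 4 without replicate 3), 0 to 0 in FP001 over low-attachment cultures and 3 to 8 among the 3 groups (3 without attachment replicate 2).

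With the replicate number as a block, 8 genes were called in FP001 over attachment cultures, 9 in low-attachment over attachment cultures, 10 among the 3 groups and 2 between FP001 and low-attachment cultures, or 3 with the 6 low-attachment arrays alone. Attachment numbers showed no pairing with the others (correlations of -0.256 to 0.138). With 2 attachment arrays the deviations mirror each other and replicate 1 has no partner, so this check could hardly show pairing. Only the last comparison has the block in the text. Under it CES1 was called in both attachment comparisons (adjusted p = 5.41e-05 with FP001 and 5.51e-05 without). Quantile normalization called 6 members in FP001 over attachment cultures and turned the split of all called genes there to 1241 higher and 968 lower, against 882 and 1244, and in low-attachment over attachment cultures to 612 and 512, against 471 and 629. The causes were not tested.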
